A study of Mus musculus with 2 samples.

Results

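Among the small RNAs of embryonic mouse midbrain, 8 microRNA loci known from endocrine glands, pancreas, liver and gut were examined: Mir375, Mir216a, Mir216b, Mir217, Mir122, Mir192, Mir194-1 and Mir194-2. They were selected by symbol, and each of the 8 had a row among the 1973 gene rows of the tables. The tissue was midbrain of B6NCrl mouse embryos at embryonic day 13.5, pooled over male and female embryos. There was 1 group of 2 biological replicates with 1 microRNA-seq library each, made from RNA under 30 nt, and no second tissue, age or treatment, so the only comparison is of replicate 2 with replicate 1. The samples share a donor record, and no source used here says whether the embryos of the pools were unrelated.

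MicroRNAs are cut from hairpin transcripts into short mature strands, which pair through their seed (bases 2 to 8) with messenger RNAs and lower their output. miR-375 is known from pancreatic islets, pituitary and other neuroendocrine cells, where it restrains insulin secretion. miR-216a, miR-216b and miR-217 come from 1 cluster and are known from the exocrine pancreas, miR-122 is the leading microRNA of hepatocytes, and miR-192 and miR-194 are paired microRNAs of gut, liver and kidney epithelium.

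The mature strands below are shown because the seeds tell the loci apart and because 1 strand is shared by a pair of loci, which bears on its counts. They are RefSeq sequences on GRCm38.p6, 5′ to 3′, with the seed in capitals. Of the 8 loci, 7 are shown. miR-375-3p, miR-122-5p and miR-122-3p are named only. The sequences used held no entry for miR-375-3p, and locus counts do not tell which strand of Mir375 was read. The seed of miR-375-5p is therefore not given as the working seed of Mir375.
miR-375-5p: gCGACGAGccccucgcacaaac
miR-216a-5p: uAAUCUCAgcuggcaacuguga
miR-216b-5p: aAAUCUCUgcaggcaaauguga
miR-217-5p: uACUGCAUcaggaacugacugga
miR-192-5p: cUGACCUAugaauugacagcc
miR-215-5p: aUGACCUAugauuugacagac
miR-194-5p: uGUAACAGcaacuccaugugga
miR-194-1-3p: cCAGUGGAgcugcuguuacuuc
miR-194-2-3p: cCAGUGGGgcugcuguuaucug

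The seed of miR-192-5p was shared with miR-215-5p alone among 1679 mature names. Those strands differ at 3 of 21 positions, all outside the seed (C1A, A12U and C20A, counted from the 5′ end with the base of miR-192-5p first). miR-216a-5p and miR-216b-5p differ at 4 of 22 positions, 1 of them in the seed (A8U, with the base of miR-216a-5p first), so by this definition of the seed they form no seed family. miR-194-5p is the same sequence at both Mir194 loci. A read of that strand alone maps to both places, and such multimapping reads were left out of every locus count. The 3p strands of Mir194-1 and Mir194-2 differ at 4 of 22 positions. Against 2201 other annotated hairpins, the longest exact run shared by the other 6 loci was 9 to 12 nt, and the Mir194 hairpins shared a run of 22 nt with each other.

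On mm10, by GENCODE M21, Mir375 lies on chromosome 1 from 74900658 to 74900721 on the minus strand with no host gene, in a model 1 version later than the one counted (ENSMUSG00000065616.2). The Mir216 and Mir217 cluster lies on the plus strand of chromosome 11, with Mir216b from 28746191 to 28746276, Mir216a from 28757012 to 28757083 and Mir217 from 28763728 to 28763835. Mir216b has no host on its strand, whereas both Mir216a and Mir217 are intronic to the long noncoding RNA Gm12082. The gaps between the 3 hairpins are 10735 and 6644 bp. Mir194-2 (6264643 to 6264728) and Mir192 (6264844 to 6264932) lie 115 bp apart on the plus strand of chromosome 19 with no host. Mir194-1, on the plus strand of chromosome 1 from 185313319 to 185313385, is intronic to the noncoding RNA 2010103J01Rik and antisense to an intron of Iars2, 195 bp before Mir215.

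Levels are counts on the strand of the gene scaled to the library total of such counts (CPM). Replicate 1 held 5093743 of these counts and replicate 2 held 2935841. A fixed floor of 3 counts, not taken from the intervals used here, stands for 0.589 and 1.02 CPM. Intervals are 95% exact intervals (Poisson for levels, Clopper-Pearson for shares and ratios), and they cover counting error only. Multimapping reads were 34.4% and 37.7% of all reads. Levels of a list of 14 neural microRNAs, 13 of them with a row, are given as a description. The list was chosen with earlier results of these data known, so its levels cannot check the midbrain label. Mir149, Mir135b and Mir92b, the last known from neural progenitors, led the list at 18860 ± 507, 11089 ± 478 and 9214 ± 1094 CPM (SD, n = 2). Mir137, known from neurons, followed at 7831 ± 2028 CPM, and 9 of the 13 reached 10 CPM in both libraries. The other 4, from families known from neurons and neural progenitors, lay under that level. Mir124a-2 had a mean of 9.31 ± 0.16 CPM and Mir124a-1 one of 2.37 ± 0.020 CPM. Mir9-2 had 2.08 ± 0.44 CPM and Mir124a-3 had 1.64 ± 0.094 CPM, while Mir9-3, among the 9, had 377 ± 33.8 CPM. Reads that map to several places are left out of these counts, so they are not the levels of mature miR-124 or miR-9. By the exact conditional binomial test, adjusted over all tested loci, replicate 2 was higher at 5 of the 13 neural loci and replicate 1 at 1 (4 and 3 under total counts only), with a median log2 ratio of 0.08. The same test called 38.0% of all 466 tested loci, 19.3% toward replicate 2 and 18.7% toward replicate 1, so nothing particular to the list is read from its counts.

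Mir375 had the most counts of the 8 loci, Mir194-1 the fewest, and the means of the other 6 over both replicates lay between 67.9 and 270 CPM. Mir375 had 2666 counts, or 523 CPM (504 to 544), in replicate 1 and 4007 counts, or 1365 CPM (1323 to 1408), in replicate 2. Its mean of 944 ± 595 CPM (SD, n = 2) took place 93 of the 1973 rows, between Mir183 (984 ± 67.3 CPM) and Mir325 (934 ± 13.5 CPM). Replicate 2 stood far above replicate 1, and their counting intervals did not overlap.

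The Mir216 and Mir217 cluster was led by Mir217, with 281 CPM in replicate 1 and 260 CPM in replicate 2 (270 ± 14.9, place 160). Mir216b had 109 and 115 CPM (112 ± 4.12, place 200), and Mir216a had 67.7 and 77.7 CPM (72.7 ± 7.02, place 218). The order Mir217, Mir216b, Mir216a was the same in both libraries, and the values of the 3 loci did not overlap. Mir217 had 2.58 times the counts of Mir216b in replicate 1 (2.34 to 2.85) and 2.26 times in replicate 2 (1.99 to 2.58). Mir216b had 1.61 times the counts of Mir216a (1.40 to 1.85) and 1.48 times (1.25 to 1.76). For both pairs the intervals of the libraries overlapped. Summed, the cluster held 458 CPM in replicate 1 and 452 CPM in replicate 2. Mir216c, annotated on the other strand of Mir216b, was not analysed here as a locus of its own, and no opposite-strand read was counted at Mir216b in either library, nor at any other of the 8 loci.

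Mir122 had 300 counts (58.9 CPM, 52.4 to 66.0) in replicate 1 and 409 counts (139 CPM, 126 to 153) in replicate 2, a mean of 99.1 ± 56.9 CPM at place 206. The counting intervals of the libraries did not overlap, as for Mir375 and for no other of the loci. Mir192 had 91.3 and 103 CPM (96.9 ± 7.95, place 208), and its cluster partner Mir194-2 had 66.4 and 69.5 CPM (67.9 ± 2.21, place 224). Mir192 had 1.38 times the counts of Mir194-2 in replicate 1 (1.19 to 1.59) and 1.48 times in replicate 2 (1.23 to 1.77). Mir194-1 had 4 counts in each library, or 0.785 CPM (0.214 to 2.01) and 1.36 CPM (0.371 to 3.49). Mir194-2 thus had 84.5 times the counts of Mir194-1 in replicate 1 (32.7 to 312) and 51.0 times in replicate 2 (19.6 to 189). Because miR-194-5p reads cannot be placed at either locus, these counts are not the level of mature miR-194-5p.

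**Figure D1:**
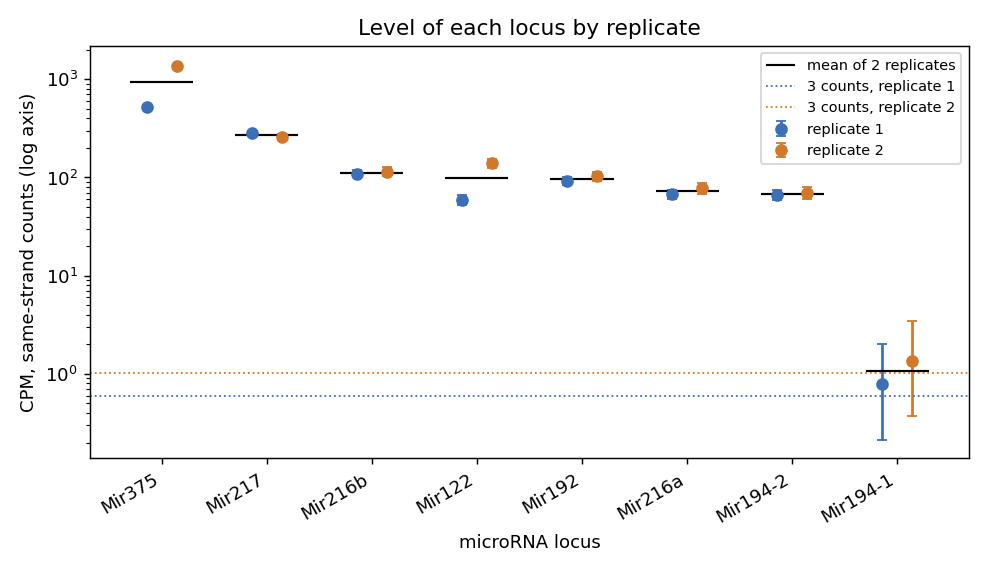
CPM of each of the 8 loci in replicate 1 (blue) and replicate 2 (orange) on a log axis, with 95% exact Poisson intervals, the mean as a black line and the level of 3 counts as a dotted line for each library. Mir375 and Mir122 have their replicates far apart, 523 and 1365 CPM and 58.9 and 139 CPM, while Mir194-1 lies near the dotted lines.

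By mean level the order was Mir375, Mir217, Mir216b, Mir122, Mir192, Mir216a, Mir194-2 and Mir194-1. The replicate ranges of neighbours overlapped for Mir216b and Mir122, for Mir122 and Mir192, and for Mir216a and Mir194-2, so 2 replicates do not resolve the order of those pairs. Mir122 was below Mir192 in replicate 1 and above it in replicate 2. Levels per nt of hairpin gave the same order except that Mir122 (1.5 CPM per nt) came before Mir216b (1.3 CPM per nt). Of all 1973 rows, 205 had a mean of at least 100 CPM, and Mir375, Mir217 and Mir216b were among them.

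**Figure D2:**
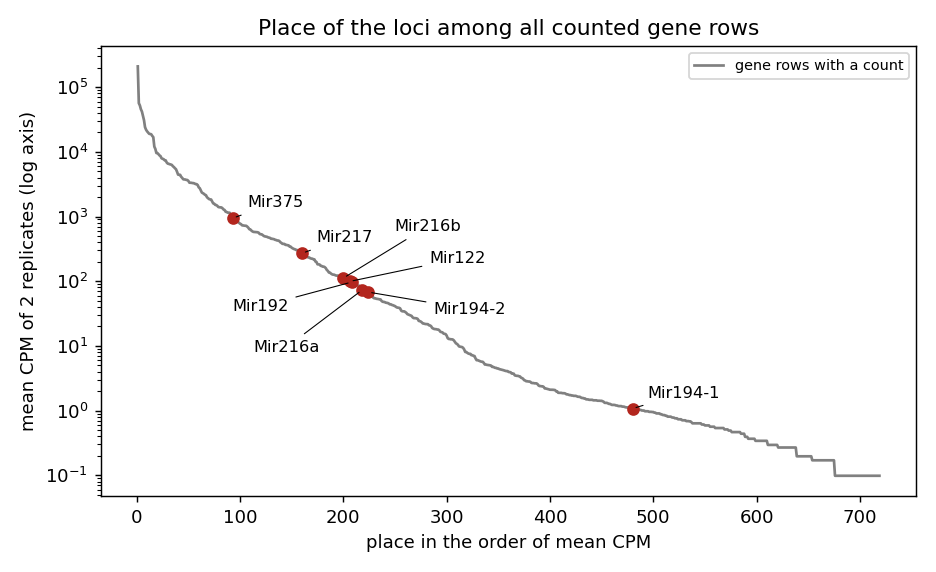
Mean CPM (log axis) against the place of each gene row with a count in the order of mean CPM, as a grey line, with the 8 loci as red points. Mir375 stands at place 93, the next 6 loci between places 160 and 224, and Mir194-1 at place 480.

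Between the libraries, Mir375 and Mir122 were higher in replicate 2 and the other tested loci did not pass. The ratio was taken after TMM scaling of the libraries with 0.5 CPM added, and tested per locus by an exact conditional binomial test (two-sided) with Benjamini-Hochberg adjustment over all 466 loci with at least 10 counts. This test sets the reads of one library against those of the other. It compares no conditions and includes no spread between tissue samples. It called 38.0% of the 466 loci, 19.3% with replicate 2 higher and 18.7% with replicate 1 higher (90 and 87 loci, or 69 and 112 under total counts only). Of the 8 loci, 7 entered the test and Mir194-1 did not. The test called 2 of the 7, both higher in replicate 2. With that background, the number of calls sets these loci apart in no way, and their sizes are given as a description.

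Mir375 was 2.73-fold higher in replicate 2 (2.60 to 2.87, log2 ratio 1.45), with an adjusted p too small for the software to represent. Mir122 was 2.46-fold higher in replicate 2 (2.13 to 2.89, log2 ratio 1.30, exact conditional binomial test, adjusted p = 3.75e-32). A difference of at least 1.5-fold in either direction was seen at 19.1% of the tested loci, and one with replicate 2 higher at 7.51%. Among the 205 tested loci whose mean reached 100 CPM, Mir375 had the largest ratio of replicate 2 to replicate 1, with an SD of the log2 ratio over these loci of 0.31. Among the 63 loci within 2-fold of its mean level, Mir122 had the largest log2 ratio in either direction, and the others reached down to -0.67.

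The other 5 tested loci lay between log2 ratios of -0.05 and 0.26. Mir216a stood at 0.26 (0.02 to 0.51, exact test, adjusted p = 0.0797) and Mir192 at 0.23 (0.02 to 0.45, exact test, adjusted p = 0.0716). Mir216b stood at 0.14 (-0.06 to 0.34), Mir194-2 at 0.13 (-0.12 to 0.39) and Mir217 at -0.05 (-0.17 to 0.08). At Mir217 the interval, which covers counting error only, reached up to 1.06-fold in favour of replicate 2. The median log2 ratio of the 7 loci was 0.23, against 0.00 over all 466.

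**Figure D3:**
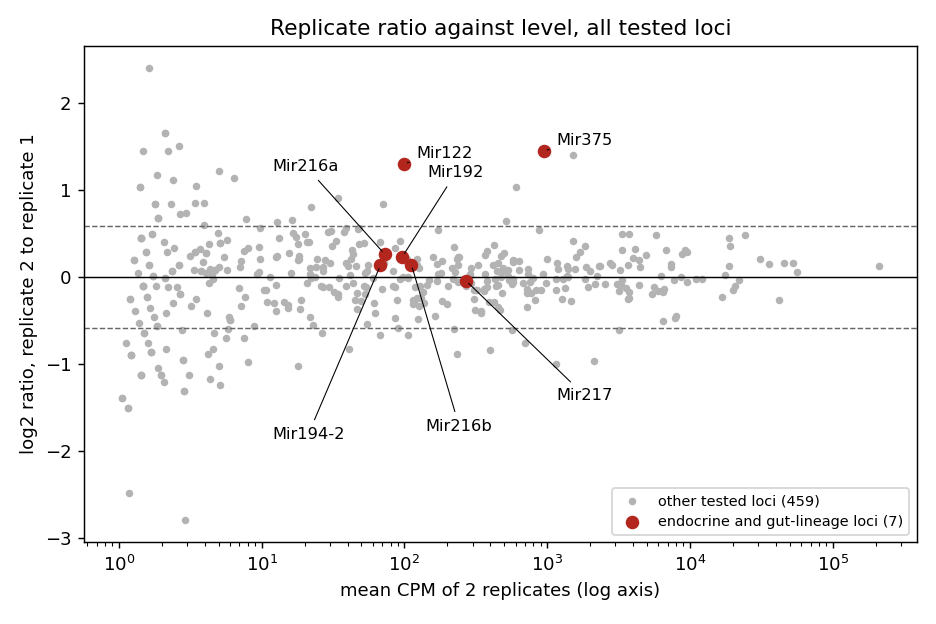
Log2 ratio of replicate 2 to replicate 1 against mean CPM (log axis) for 466 tested loci, with the 7 tested endocrine and gut-lineage loci in red and dashed lines at 1.5-fold. Mir375 (1.45) and Mir122 (1.30) lie above the upper dashed line and the other 5 lie between the lines.

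Mir375 and Mir122 had similar proportions to each other in both libraries, while the ratio of Mir375 to the pancreatic Mir217 differed between them. Mir375 had 8.89 times the counts of Mir122 in replicate 1 (7.88 to 10.05) and 9.80 times in replicate 2 (8.85 to 10.9), with overlapping intervals. Against Mir217, Mir375 had 1.86 times the counts in replicate 1 (1.75 to 1.99) and 5.25 times in replicate 2 (4.86 to 5.68), intervals that did not overlap. Mir375 made up 43.7% of the counts of the 8 loci in replicate 1 and 64.1% in replicate 2. All 8 together held 0.120% of all counts in replicate 1 (0.117 to 0.123) and 0.213% in replicate 2 (0.208 to 0.218). Without Mir375 the other 7 held 0.0675% (0.0653 to 0.0698) and 0.0765% (0.0734 to 0.0797).

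By closeness of the log2 ratio to that of Mir375, a likeness that rests on only 2 samples, the nearest 5 loci with a mean of at least 100 CPM were Mir449a, Mir1298, Mir195a, Mir223 and Mir204. Mir122 (log2 ratio 1.30) was closer than Mir1298 but fell just under this limit, at a mean of 99.1 CPM. Mir449a, known from multiciliated cells, went from 859 CPM in replicate 1 to 2166 CPM in replicate 2 (log2 ratio 1.40). Mir1298, known from choroid plexus, went from 410 to 802 CPM (1.03). Mir195a (0.64), the myeloid Mir223 (0.54) and Mir204 (0.54), a microRNA of choroid plexus and pigment epithelium, were less close.

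Some choroid plexus and multiciliated microRNAs were higher in replicate 2, as were Mir375 and Mir122. All 12 listed loci had a row and none was at 0 in either library. Replicate 2 was higher at 7 of the 11 tested loci and replicate 1 at none, against 19.3% and 18.7% of all tested loci. Mir211, Mir34b, Mir449b and Mir449c did not pass, and the median log2 ratio was 0.90. With total counts only 5 passed. Summed, the list held 2551 CPM in replicate 1 and 4635 CPM in replicate 2, a ratio of 1.82. Mir449a alone held 859 and 2166 CPM of these sums. Mir448 and Mir1264, from the same host gene as Mir1298, Htr2c, went from 52.0 to 88.9 CPM and from 24.3 to 43.9 CPM. The called loci are therefore not all separate, and the call of Mir1912 rests on 5 and 10 counts. The list was also chosen with earlier results of these data known. The part of choroid plexus and multiciliated cells in the difference of Mir375 and Mir122 was not tested. In bulk tissue, fewer cells of a type and less RNA per cell cannot be told apart.

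Several vascular and mesenchymal loci were also higher in replicate 2. Of 8 listed loci 7 were tested, and replicate 2 was higher at 5 of them (4 with thinning) and replicate 1 at none, against 19.3% and 18.7% of all tested loci. Mir199b and Mir199a-2 did not pass, and the median log2 ratio was 0.23. The endothelial Mir126a went from 16256 to 21170 CPM (log2 ratio 0.45) and Mir143, of smooth muscle, from 4991 to 6626 CPM (0.48), while Mir140, of cartilage and mesenchyme, stood at 3582 and 3752 CPM (0.13). Mir140 was called at that small ratio on 18247 and 11016 counts, as the test passes small ratios where counts are many. All tested loci had a median level of 53.0 CPM, far below these named loci. The share of calls is therefore not read as particular to the list. The list summed to 25224 and 31993 CPM. Its part in the ratios of Mir375 and Mir122 was not tested.

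Blood loci did not share a direction. Of 6 tested blood and leukocyte loci, Mir223 was higher in replicate 2 (144 and 200 CPM), the erythroid Mir451a was higher in replicate 1 (53.8 and 39.5 CPM) and the other 4 did not pass. The call of Mir451a ended with unstranded counts (exact test, adjusted p = 0.0506). Mir155 (147 and 124 CPM), known from activated lymphocytes, passed with total counts only (log2 ratio -0.25). The list summed to 412 and 436 CPM. Muscle loci served as a level for another tissue and summed to 60.9 and 62.0 CPM, led by Mir208b (40.1 ± 1.14 CPM), Mir206 (12.6 ± 2.94 CPM) and Mir208a (5.15 ± 0.90 CPM), and none of 4 tested loci passed the exact test (also none with DESeq2 size factors), while Mir499 passed with thinning (log2 ratio 2.12). Mir1a-1, Mir133a-1 and Mir133a-2 had no count in either library, where reads that map to several places are again not counted. Mir375, Mir217, Mir216b, Mir192, Mir216a and Mir194-2 each exceeded the sum of the muscle list in both libraries. Mir122 exceeded the sum in replicate 2, and Mir194-1 lay below it in both. Because multimapping reads are missing and Mir1a-2 had no row, the sum may understate muscle microRNAs. No level above a background is therefore read from this comparison.

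Further endocrine and neuroendocrine microRNAs were called in both directions. Replicate 1 was higher at 6 of 13 tested loci and replicate 2 at 2, while 5 did not pass, and the median log2 ratio was -0.16. The background of calls was 18.7% toward replicate 1 and 19.3% toward replicate 2. The counts of the list were 8 and 1 under total counts only, and 3 and 1 of 12 after thinning. Mir335, which lies in the imprinted gene Mest, held nearly all counts of the list (56881 and 56237 CPM). It was called higher in replicate 2 with TMM scaling (log2 ratio 0.05) and higher in replicate 1 with total counts only (-0.02), so it has no direction. Mir183, of sensory cells, stood at 1032 and 937 CPM and passed, higher in replicate 1, with total counts only and with a minimum of 1 count. Mir182 (893 and 502 CPM, log2 ratio -0.76) and Mir96 (340 and 291 CPM) were called higher in replicate 1, Mir96 not with thinning. The call of Mir184, also toward replicate 1, rests on 12 and 0 counts. Mir7b, of the miR-7 family that is shared by islets, pituitary and neuroendocrine brain regions, went the other way from Mir375, from 1547 CPM in replicate 1 to 740 CPM in replicate 2 (log2 ratio -0.996). Mir7-1 (691 and 434 CPM) and Mir7-2 (348 and 298 CPM) were also higher in replicate 1. Mir7-2 was not called with thinning (exact test, adjusted p = 0.0863). Reads that map to several places are left out of the Mir7 counts too, so they are not the levels of mature miR-7. Mir429, a pituitary and epithelial microRNA, was higher in replicate 2, at 25.5 and 35.4 CPM, but not with thinning (exact test, adjusted p = 0.128).

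Further liver, pancreas and gut microRNAs held 2 called loci. Of 9 loci with a row 8 were tested, and replicate 1 was higher at 2 of them and replicate 2 at none, with a median log2 ratio of -0.10. The background was 18.7% toward replicate 1 and 19.3% toward replicate 2, so the 2 calls are near it. Mir21a (4671 and 4163 CPM), made by many cell types, and Mir101b (2037 and 1799 CPM), of liver and many other tissues, were the 2 called loci, and Mir101a stood at 601 and 552 CPM with a call only with total counts only (log2 ratio -0.12). Mir148a, abundant in liver and exocrine pancreas, had 175 and 171 CPM. Mir802, known from liver and pancreas, had 0 counts in replicate 1 and 1 in replicate 2, under the fixed floor of 3 counts. Mir215, the seed partner of Mir192 and neighbour of Mir194-1, had 1.96 and 1.70 CPM (10 and 5 counts), far below Mir192.

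**Figure D4:**
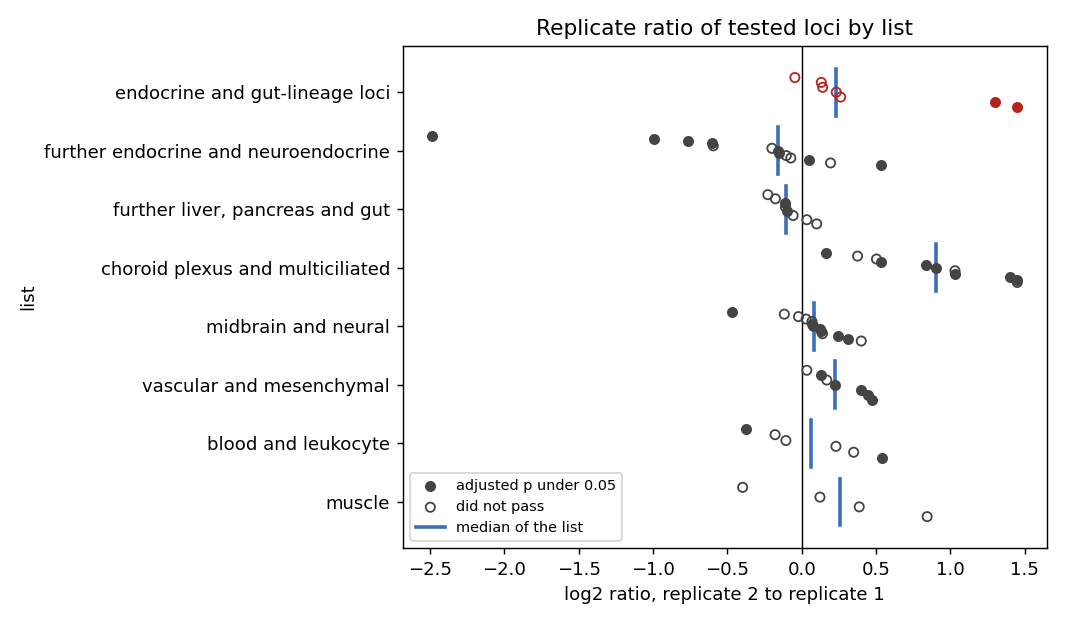
Log2 ratio of replicate 2 to replicate 1 for the tested loci of each list, filled where the adjusted p was under 0.05 and open where the locus did not pass, with the list's median as a blue line. The choroid plexus and multiciliated list (median 0.90) lies toward replicate 2, where Mir375 and Mir122 also lie, and the further endocrine list (-0.16) and the further liver, pancreas and gut list (-0.10) have medians on the other side of 0.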

How the data were processed

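The authors deposited a table of raw read counts for each sample, made on mm10 with annotation M4, per the notes deposited beside it. The aligner, trimming and read filters, not given in the sources used here, could change the counts of similar hairpins. There are 3 count columns, of which the first equals the sum of the others in 3946 of 3946 gene rows over both tables. From this they were read as unstranded, same-strand and opposite-strand counts, which is an inference. The 4 rows that name no gene stayed out. Unmapped reads were 16.1% and 15.7% of all reads, and reads outside genes 3.79% and 3.80%.

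Of 1973 IDs, 1894 were named through GENCODE M21 by ID without version. CPM was computed over all gene rows. TMM factors came from edgeR 4.0.16 (R 4.3.3) on loci with at least 10 counts. The exact conditional binomial test came from scipy 1.17.1 (Python 3.11.15) and was run on simulated data. Those data held counting error and no further spread between replicates, so they cannot check the test for libraries that differ more. With 1 group, no model contrast between groups could be fitted. The libraries differed by more than sampling noise (chi-square divided by its degrees of freedom 93.5 over 466 loci), so they were kept as 2 samples.

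The loci and the 7 further lists (74 symbols, 69 with a row) were chosen with earlier results of these data known. Mir216c, Mir378a, Mir9-1, Mir142 and Mir1a-2 had no row by that symbol and were not analysed here. The text names the 8 loci, the 3 highest of each list, the 5 loci at 100 CPM or more closest to Mir375 in ratio, and the neighbours in level, of which only those of Mir375 are printed. Other loci were named after their values were seen. The alternatives tried were size factors of DESeq2 1.42.0, no scaling beyond total counts, minimums of 1 and 50 counts, unstranded counts, thinning of replicate 1, a required 1.5-fold, a pseudocount of 0.1 CPM, multimapping reads in the denominator and each replicate left out for levels.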

Additional observations from a re-analysis of the deposited data

How the results depend on the processing

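The calls of Mir375 and Mir122 held with DESeq2 size factors, total counts only, minimums of 1 and 50 counts, unstranded counts and thinning. So did the absence of a call at the other 5 tested loci. The other pseudocount enters the ratio and not the test, so it could not change a call. The log2 ratio ranged from 1.38 to 1.47 for Mir375 and from 1.24 to 1.38 for Mir122. Mir217 changed sign with thinning (0.0075 in place of -0.05), without a call either way. With at least 1.5-fold required, 34 of 466 loci were called in place of 177, which follows from the added condition, and Mir375 and Mir122 stayed among them. The summed share of the 8 loci was 0.0908% with multimapping reads in the denominator in place of 0.166%, since the denominator grew. It was 0.213% without replicate 1 and 0.120% without replicate 2, and Mir375 stood at 1365 and 523 CPM. No test was possible with a replicate left out, as a single library remained. No paired analysis was possible because the series has 1 group. Mir194-1, with 8 counts in all, is limited by depth.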
